A study of Mus musculus with 8 samples.

Results

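The 60 genes described here code for nucleolar ribosome assembly factors, the proteins that process ribosomal RNA and build the 2 ribosomal subunits around it. They were chosen by name: a spot belonged to the set when it was not a control spot and its gene name in the array design was one of 60 listed symbols. The rule found all 60 genes, represented by 121 probes, among the 27248 named genes and 56605 probes of the array. Their signal was compared between 4 cultures of C2C12 myoblasts in which Pvt1 had been silenced and 4 control cultures. C2C12 is an established mouse myoblast line, and all cultures were proliferating and at passage 10. Pvt1 is a long non-coding RNA whose gene lies beside Myc. Silenced cultures received antisense LNA GapmeRs against Pvt1 with Lipofectamine 2000, and control cultures received negative control GapmeRs with the same reagent. A GapmeR is a short oligonucleotide that pairs with an RNA and directs its cleavage by RNase H. The labels call the 4 cultures of each group biological replicates and name 2 GapmeRs without saying which culture received which. One Cy3-labelled RNA sample was hybridised to each one-colour Agilent array.

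Ribosome production starts in the nucleolus, where RNA polymerase I copies the ribosomal genes into a long precursor. While it is being made, this precursor is bound by small nucleolar ribonucleoproteins (snoRNPs) that modify its bases and sugars, and by the complexes of the small subunit processome. It is then cut and sorted into a small (40S) and a large (60S) pre-ribosomal particle, each matured by its own helicases, GTPases and nucleases. The genes of this pathway are known for their high expression in growing cells and as targets of the transcription factor Myc, and myoblasts reduce ribosome production when they stop dividing and differentiate. The question was how the transcripts of these factors stood after Pvt1 had been lowered.

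The sequences that defined the treatment are the 2 GapmeRs, each of 16 bases, written 5′ to 3′ as the labels give them.
Pvt1_1: accgtagtagagttaa
Pvt1_3: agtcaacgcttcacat

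The probes decide which part of each transcript was read, and the results below differ with that position. A stretch of 30 bases is shown for a 5′ and a 3′ probe of 3 members and for the brightest probe of Rrp9. AATAAA and ATTAAA, the signals for cleavage and polyadenylation near the end of a transcript, are in capitals, and of the probes shown the 3′ ones of Nop56 and Rrp12 hold AATAAA. On build mm9, the Nop56 probes lie at chr2:130102854-130103256 (5′) and chr2:130104982-130105041 (3′), both on the plus strand. Those of Rrp12 lie at chr19:41945749-41945925 (5′) and chr19:41937342-41937401 (3′), and those of Heatr1 at chr13:12530153-12530858 (5′) and chr13:12531103-12531160 (3′), on the minus and the plus strand respectively. The Rrp9 probe lies at chr9:106386845-106387461 on the plus strand. Each probe is 60 bases long, so an interval over 60 bases means that the probe joined separate genomic blocks.
Nop56 5′ probe: aaaggccctgttcagagccctgaagacaag
Nop56 3′ probe: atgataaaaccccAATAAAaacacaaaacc
Rrp12 5′ probe: agcaaaggtgacagcattgaggagattttg
Rrp12 3′ probe: aaccaggcgtagAATAAAtgtgcatgacca
Heatr1 5′ probe: agaattacattgttctgctaccagagtcca
Heatr1 3′ probe: atcctctcctgccttttgtacagagttgct
Rrp9 probe: cccctggttggttttatcaacagcctcaag

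Promoter sequence from RefSeq (build GRCm38.p6) was at hand for 50 of the 60 members, in 56 windows. The 250 bases before each start were searched on both strands for 3 motifs, so that a motif on the other strand appears as its reverse complement. Different motifs do not overlap in the stretches shown, but in Nol9 TCTCGCGA overlaps its own match on the other strand, so that a longer run is in capitals there. CACGTG, the E-box bound by Myc and its relatives, was in 5 of 56 member windows (8.93%) and in 6.02% of all 32851 windows. CCGGAAG, an ETS-family motif, was in 14 member windows (25%) against 6.91% of all windows. TCTCGCGA was in 4 member windows (7.14%) against 0.858% of all. These shares are descriptions, and a match is not a binding site. Stretches of 3 members that fell in silenced cells are given to show the motifs in capitals. They lie at chr6:125131793-125131881 (plus strand) for Nop2, chr4:152039285-152039337 (plus strand) for Nol9 and chr12:17348383-17348449 (plus strand) for Nol10, all upstream of the annotated start.
Nop2 promoter: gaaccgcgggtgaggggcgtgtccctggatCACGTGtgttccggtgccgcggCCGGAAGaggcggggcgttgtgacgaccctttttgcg
Nol9 promoter: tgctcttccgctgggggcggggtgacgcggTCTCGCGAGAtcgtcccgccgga
Nol10 promoter: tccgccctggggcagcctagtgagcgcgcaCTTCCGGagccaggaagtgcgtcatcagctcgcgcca
Of the 5 members with CACGTG, Nop2 was called lower in silenced cells, while Imp4, Nol11, Utp18 and Wdr46 were not called. TCTCGCGA was found in Nol9, Nop14 and Tsr1, which were called lower, and in Nop58, whose brightest probe was not called. CCGGAAG was found in 3 of 21 windows of members called lower (14.3%), those of Mphosph10, Nol10 and Nop2. It was in 11 of 35 windows of members not called (31.4%).

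The target was checked first. The brightest Pvt1 probe (chr15:62081020-62081079, mm9) read 9.65, 9.79, 10.31 and 9.70 on the control arrays and 7.09, 6.69, 7.85 and 6.39 on the silenced arrays (normalised log2 signal, replicates 1 to 4). No silenced value reached a control value. The change was -2.86 (SE 0.32, limma adjusted p 0.000682), and an exact permutation test (two-sided) of 4 against 4 arrays gave its lowest possible p, 0.0286. Some arrays stood apart: 51.6% of spots were positive and significant on silenced replicate 4, against 58.8% to 62.5% on the other 7 arrays, and silenced replicate 4 was the lowest of its group for 48 of the 60 members. Control replicate 3 correlated less with its own group (mean r 0.96) than any other array (0.98 or more), and it was the highest control for 37 members.

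Cell type markers moved with the groups as well. The myoblast markers Myod1 (-1.95), Des (-1.35) and Cdh15 (-0.86) were called lower in silenced cells, Vim differed by -0.17, and Myf5 was not well above background on any array. Summed on a linear scale, these 5 markers reached 109000 to 135000 in controls and 72000 to 94000 in silenced cultures. Markers of liver, a tissue that the labels do not name, were the reverse. Alb, Mup1 and Serpina1c were well above background on all 4 silenced arrays and on no control array, Ttr on 3 silenced arrays and no control array, and Apoa1 on none. Summed, the 5 liver markers reached 3460 to 4260 in silenced cultures and 73.2 to 115 in controls. Of 5 markers of differentiated muscle, whose sum was 1300 to 1780 against 2940 to 3880 in controls, Acta1 was called lower (-1.88), Myh3 (-0.58), Tnnt3 (-0.26) and Myog (0.13) were not called and Ckm was not tested. Of 3 blood and endothelial markers, whose sum was 18700 to 24600 against 11400 to 16200, none was called. Ptprc differed most, by 1.26 (limma adjusted p 0.0588), Hba-a1 was at 0.54 by one probe and -0.23 by the other, and Pecam1 was not well above background on any array. The part of these markers in the changes of the assembly factors was not tested.

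Part of the assembly factors had lower transcript levels in silenced cells, and none was called higher. Among the 60 members, each read by its brightest probe, 20 were called lower in silenced cells and 0 higher at a limma adjusted p under 0.05, while 40 were not called. Rrp9 fell to 0.24 of the control level, the lowest among members well above background on all arrays, Nol10 read lower still but was well above background on 2 of 4 silenced arrays. The share called lower was 33.3%, against 13.2% of all 15420 genes tested the same way, and 6.58% of all genes were called higher. The list was made with earlier results of these data known, so this difference is a description and not a test. At an unadjusted p under 0.05, 25 members were lower and 0 higher, against 20.2% and 12.5% of all genes. The median change of the members was -0.38 (range -2.11 to 0.31), with 45 negative and 15 positive, against a median of -0.05 over all genes and -0.19 over all 28649 probes. For 27 members every silenced value lay below every control value, which was so for 17.8% of all genes. No member lay above without overlap, against 7.62% of all genes. All 60 brightest probes passed the filter on missing values, and 58 were well above background on all 8 arrays. The samples are bulk RNA, so a lower share of expressing cells and less RNA per cell cannot be told apart.

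**Figure D1:**
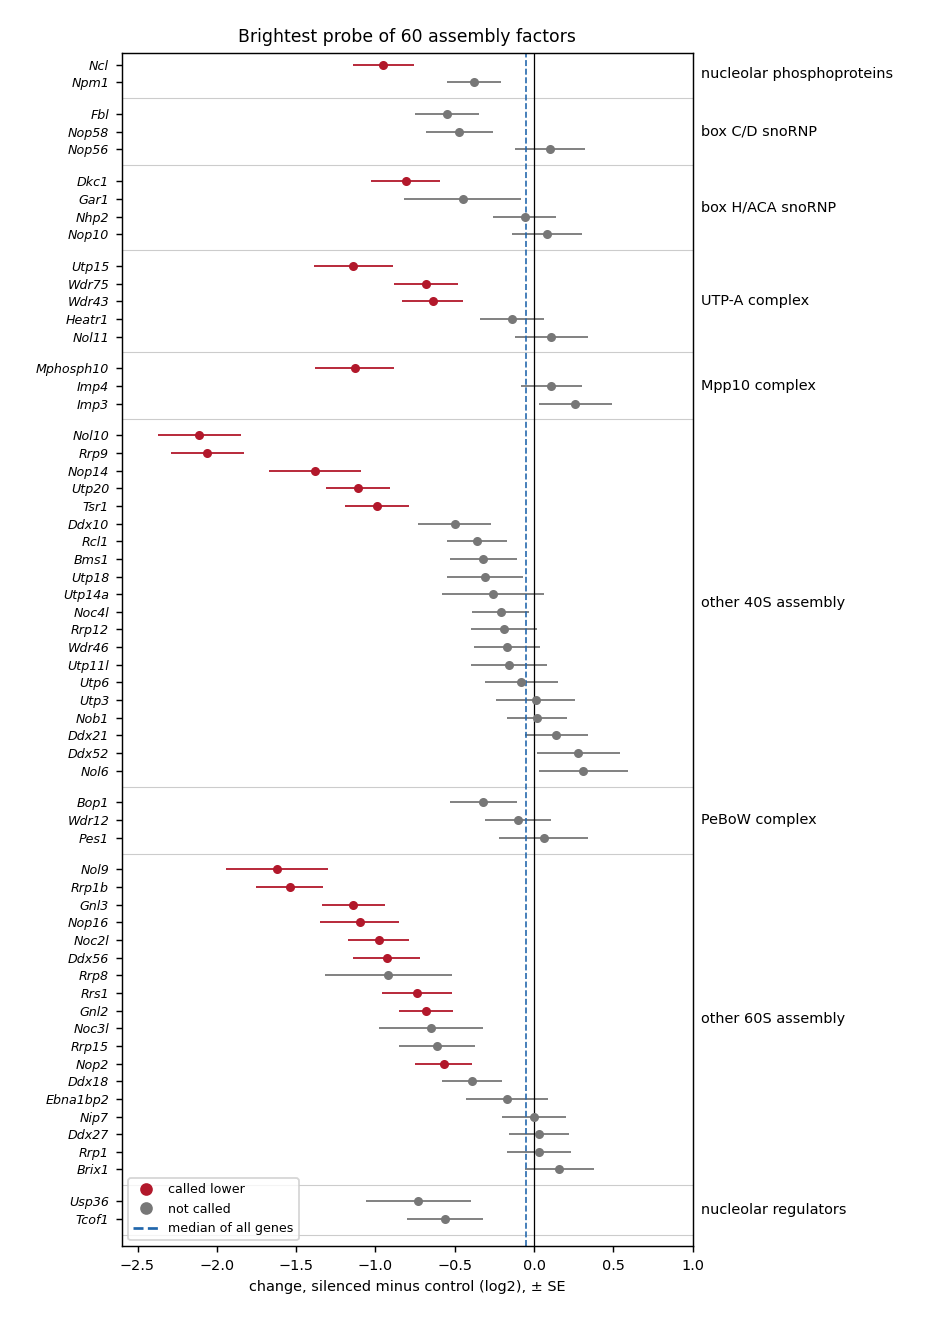
Change of the brightest probe of each of the 60 members (horizontal axis, silenced minus control, log2; bars are the SE of the limma fit), grouped by role. Red points are the 20 members called lower, grey points the 40 not called, and the dashed line is the median of all genes, -0.05; the most negative values are those of Nol10 (-2.11) and Rrp9 (-2.06).

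The count moved with the scaling and with a block in the fit. A shift of each array to its 75th percentile, which puts the median of all probes at 0.16, called 14 members lower and 13 higher, when 9.82% of all genes were called lower and 32% higher. Without masking of dim spots the counts were 19 lower and 3 higher, against 6.51% and 13% of all genes. With the row of the slide as a block, 10 members remained called lower, 16.7% of the 60, against 5.54% of all genes, and with the replicate number as a block 13 were called, against 9.05% of all genes. What the slide row and the cost of a block each contribute was not tested. The rows were unevenly filled, with control replicates 1 to 3 and silenced replicate 1 in one row and the other 4 arrays in the other. Within the first row the median member difference was -0.37, against 0.09 over all genes, and within the second -0.43, against -0.15. The 20 called members, chosen for a negative difference on these same arrays, ranged from -0.52 to -2.08 in the first row and from -0.55 to -2.44 in the second. Each of these within-row values rests on a single array of one group, so they have no test.

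**Figure D2:**
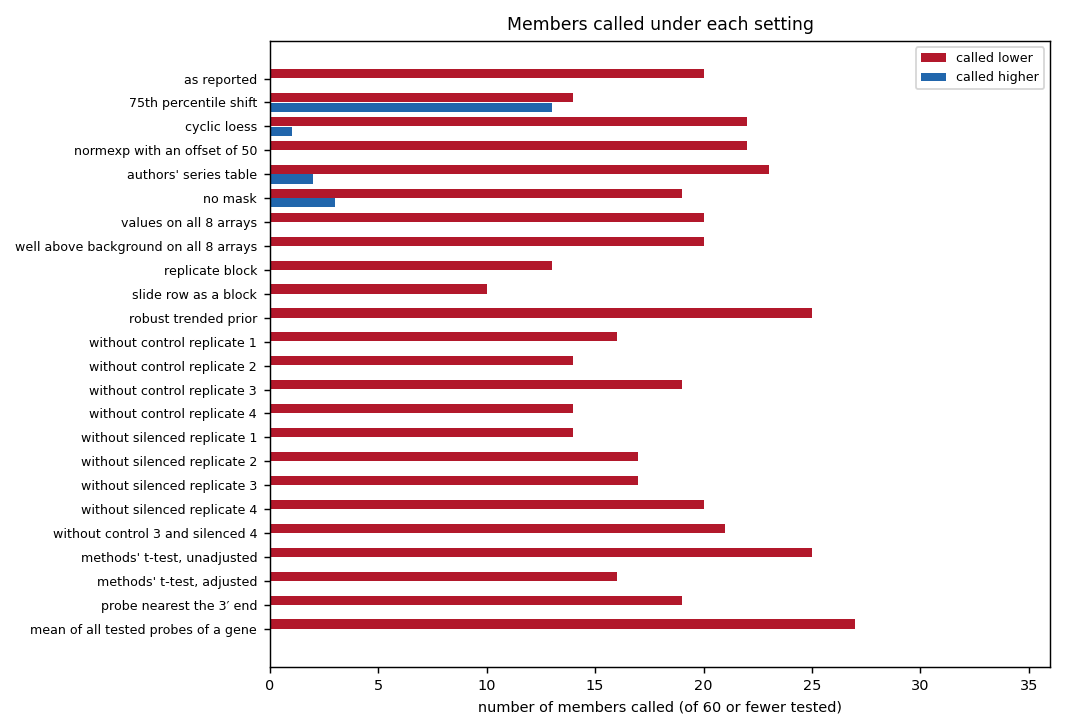
Number of members called lower (red) and called higher (blue) in silenced cells under the reported setting and each alternative (horizontal axis, number of members). Members called lower ran from 10 with the slide row as a block to 27 with the mean of a gene's tested probes. Over all genes these settings called 5.54% and 13.7% lower. Under the 75th percentile shift 13 members and 32% of all genes were called higher. The bars labelled as the methods' t-test are a t-test with unequal variances.

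Nucleolin (Ncl) and nucleophosmin (Npm1) are the abundant phosphoproteins of the nucleolus, which bind ribosomal RNA and chaperone assembly. The brightest Ncl probe (chr1:88247953-88248012, mm9) read 15.76, 15.82, 15.55 and 15.87 on control arrays and 14.83, 14.96, 14.84 and 14.59 on silenced arrays. All silenced values lay below the lowest control. Ncl fell by 0.95 on the log2 scale (SE 0.19, limma adjusted p 0.0067), to 0.519 of the control level, and it stayed called under all 23 alternatives. Its other tested probe also fell, by 1.22 (SE 0.31, limma adjusted p 0.0204). Npm1 read 16.00 to 16.08 in controls and 15.53 to 15.78 in silenced cells. These groups did not overlap either, but the difference of -0.38 (SE 0.17, limma adjusted p 0.145) was not called. One further Npm1 probe, read at 14.08 to 14.64 in controls and 13.59 to 13.89 in silenced cells, fell by 0.60 (limma adjusted p 0.0494), and the third tested probe was at -0.40, not called.

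The snoRNPs carry out most modifications of ribosomal RNA. In the box C/D class, fibrillarin (Fbl) is the methyltransferase and Nop56 and Nop58 hold the particle together, and none of their brightest probes was called. Fbl had the brightest probe of the 3 (chr7:28964201-28964260, mm9), at 15.27, 15.44, 15.68 and 15.43 in controls and 14.84, 15.00, 15.14 and 14.64 in silenced cells. Its groups did not overlap, and the difference was -0.55 (SE 0.20, limma adjusted p 0.0729). Nop58 differed by -0.47 (SE 0.21) and Nop56 by 0.10 (SE 0.22).

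In the box H/ACA class dyskerin (Dkc1) is the pseudouridine synthase, and Gar1, Nhp2 and Nop10 are its partners. Dkc1 (chrX:72354473-72354532, mm9) read 10.29, 10.66, 10.77 and 10.48 in controls and 9.80, 10.07, 9.74 and 9.34 in silenced cells. The highest silenced culture, replicate 2, was below the lowest control. Dkc1 fell by 0.81 (SE 0.22, limma adjusted p 0.0258), while with the slide row as a block its adjusted p was 0.117. The 3 partners were not called, with differences of -0.45 (Gar1), -0.06 (Nhp2) and 0.08 (Nop10). Gar1 shows how much a single culture can weigh: it read 14.10, 14.44 and 14.74 in silenced replicates 1 to 3 and 12.84 in replicate 4, against 14.30 to 14.61 in controls.

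The UTP-A complex binds the start of the precursor first and is tied to its transcription. Of its 5 members, Utp15, Wdr43 and Wdr75 were called lower and Heatr1 and Nol11 were not. Utp15 (chr13:99017780-99017839, mm9) read 8.44, 8.83, 8.18 and 8.76 in controls and 7.07, 7.86, 7.61 and 7.11 in silenced cells. It fell by 1.14 (SE 0.25, limma adjusted p 0.0114), to 0.453 of the control level, without overlap. Wdr75 (chr1:45879813-45880205, mm9) read 13.01, 13.17, 12.85 and 13.18 against 12.43, 12.48, 12.56 and 11.99. Wdr75 fell by 0.68 (SE 0.20, limma adjusted p 0.0374) and Wdr43 fell by 0.64 (SE 0.19, adjusted p 0.0342), and with the slide row as a block neither was called (adjusted p 0.126 and 0.144). The brightest probes of Heatr1 (-0.14) and Nol11 (0.11) lay within the spread of the cultures.

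In the Mpp10 complex, which with U3 snoRNA folds the precursor for the early cuts, Mphosph10 (Mpp10 itself) was called lower and its partners Imp3 and Imp4 were not. Mphosph10 (chr7:71525843-71525902, mm9) read 10.22, 10.58, 10.87 and 10.66 in controls and 9.79, 9.53, 9.61 and 8.87 in silenced cells. The groups were apart, with silenced replicate 4 the lowest. Mphosph10 fell by 1.13 (SE 0.25, limma adjusted p 0.0115), and the adjusted p was 0.0664 with the slide row as a block. Imp3 differed by 0.26 and Imp4 by 0.11, and both were among the members called higher after the 75th percentile shift (0.79 and 0.57).

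Among the other 20 factors of the small subunit, 5 were called lower (25%, against 13.2% of all genes). These were Nol10, Rrp9, Nop14, Utp20 and Tsr1. Rrp9, a protein of the U3 snoRNP, had the most negative change among the brightest probes well above background on all arrays. It read 12.64, 13.03, 13.43 and 13.02 in controls and 10.95, 11.31, 10.73 and 10.89 in silenced cells. The groups did not overlap. Rrp9 fell by 2.06 (SE 0.23, limma adjusted p 0.000673), to 0.24 of the control level, and it stayed called under all 23 alternatives, with changes between -2.21 and -1.66. Nop14, a scaffold of the processome (chr5:34986699-34987391, mm9), read 11.02, 11.35, 10.99 and 11.40 against 10.04, 10.33, 9.04 and 9.84. Silenced replicate 3 was its lowest culture, and Nop14 fell by 1.38 (SE 0.29, limma adjusted p 0.00859).

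Nol10 (chr12:17423757-17431504, mm9) had the most negative value, with 8.31, 8.63, 7.85 and 8.59 in controls and 6.50, 6.49, 5.78 and 6.18 in silenced cells. It was well above background on 2 of 4 silenced arrays, so its change of -2.11 (SE 0.26, limma adjusted p 0.000899) rests partly on dim spots. Utp20, a large scaffold protein, fell by 1.11 (SE 0.20, limma adjusted p 0.00503), and Tsr1, a GTPase-like factor of late particles, by 0.99 (SE 0.20, adjusted p 0.00765). The remaining 15 ranged from -0.50 for the helicase Ddx10 to 0.31 for Nol6. Ddx21 and Ddx52, also helicases, were at 0.14 and 0.28, and the nuclease Nob1 was at 0.02. By its brightest probe Utp18 was near background throughout, with no array well above it, and its second probe, not tested, was well above it on control replicate 3 alone. The brightest probe read 5.08, 5.73, 5.54 and 5.46 in controls and 4.99, 5.07 and 5.36 in silenced replicates 1 to 3, with no value in replicate 4, so the fit used 7 arrays. Its groups overlapped and no fold is given.

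The PeBoW complex (Pes1, Bop1, Wdr12) acts in large-subunit assembly, and none of its members was called by its brightest probe. Bop1 was the brightest (chr15:76283572-76283631, mm9), at 13.63, 14.03, 14.21 and 14.19 in controls and 13.84, 13.91, 13.57 and 13.49 in silenced cells. The groups overlapped, and the difference was -0.32 (SE 0.21, limma adjusted p 0.317). Pes1 differed by 0.06 (SE 0.28) and Wdr12 by -0.10 (SE 0.21).

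Of the other 18 large-subunit factors, 9 (50%) were called lower, against 13.2% of all genes. These were Nol9, Rrp1b, Gnl3, Nop16, Noc2l, Ddx56, Rrs1, Gnl2 and Nop2. Nol9, a polynucleotide kinase of precursor processing (chr4:151433365-151433424, mm9), read 9.82, 10.27, 10.88 and 10.39 in controls and 8.93, 9.32, 8.0 and 8.64 in silenced cells. Its cultures were widely spread in both groups but did not overlap, and Nol9 fell by 1.62 (SE 0.32, limma adjusted p 0.00726). Rrp1b, a nucleolar chromatin-associated protein (chr17:32193829-32193888, mm9), read 10.34, 10.69, 10.73 and 10.65 against 9.30, 9.31, 8.94 and 8.71. Rrp1b fell by 1.54 (SE 0.21, limma adjusted p 0.0015), to 0.345 of the control level, but its probe nearest the 3′ end differed by -0.01 (adjusted p 0.986).

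The nucleolar GTPases Gnl3 (nucleostemin) and Gnl2 fell by 1.14 (SE 0.20, limma adjusted p 0.00389) and 0.68 (SE 0.17, adjusted p 0.0217). Gnl3 read 12.46 to 12.70 in controls and 11.20 to 11.67 in silenced cells, and it was called under all 23 alternatives. Nop16 fell by 1.10, Noc2l by 0.98, the helicase Ddx56 by 0.93, Rrs1 by 0.74 and the ribosomal RNA methyltransferase Nop2 by 0.57, with limma adjusted p between 0.00628 (Noc2l) and 0.0427 (Nop2). Nop2 was the least stable of the called members, called under 10 of 23 alternatives. With the slide row as a block, Ddx56, Gnl2, Nop16, Nop2 and Rrs1 were not called, at adjusted p of 0.0606 to 0.158, nor was Tsr1 of the small subunit (0.0543).

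Of the 9 large-subunit factors not called, Rrp8 (-0.92, SE 0.40), Noc3l (-0.65, SE 0.33) and Rrp15 (-0.61, SE 0.24) had the most negative values. Control replicate 3 read 8.2 for Rrp8, while the other controls read 9.70 to 9.99, so the groups overlapped. Noc3l was read at 7.28 on silenced replicate 4 and at 8.46 to 8.93 on the other silenced arrays. The other values lay between -0.39 (Ddx18) and 0.16 (Brix1).

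Treacle (Tcof1), which supports RNA polymerase I, and the deubiquitinase Usp36 were grouped as nucleolar regulators, and neither was called by its brightest probe. Tcof1 read 13.26, 13.23, 13.23 and 13.46 in controls and 12.97, 12.79, 13.05 and 12.11 in silenced cells. The groups did not overlap, with silenced replicate 4 well below the rest, and the difference was -0.56 (SE 0.24, limma adjusted p 0.12). Usp36 read 8.77 to 9.29 in controls and 7.38 to 8.86 in silenced cells, a difference of -0.73 (SE 0.33).

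**Figure D3:**
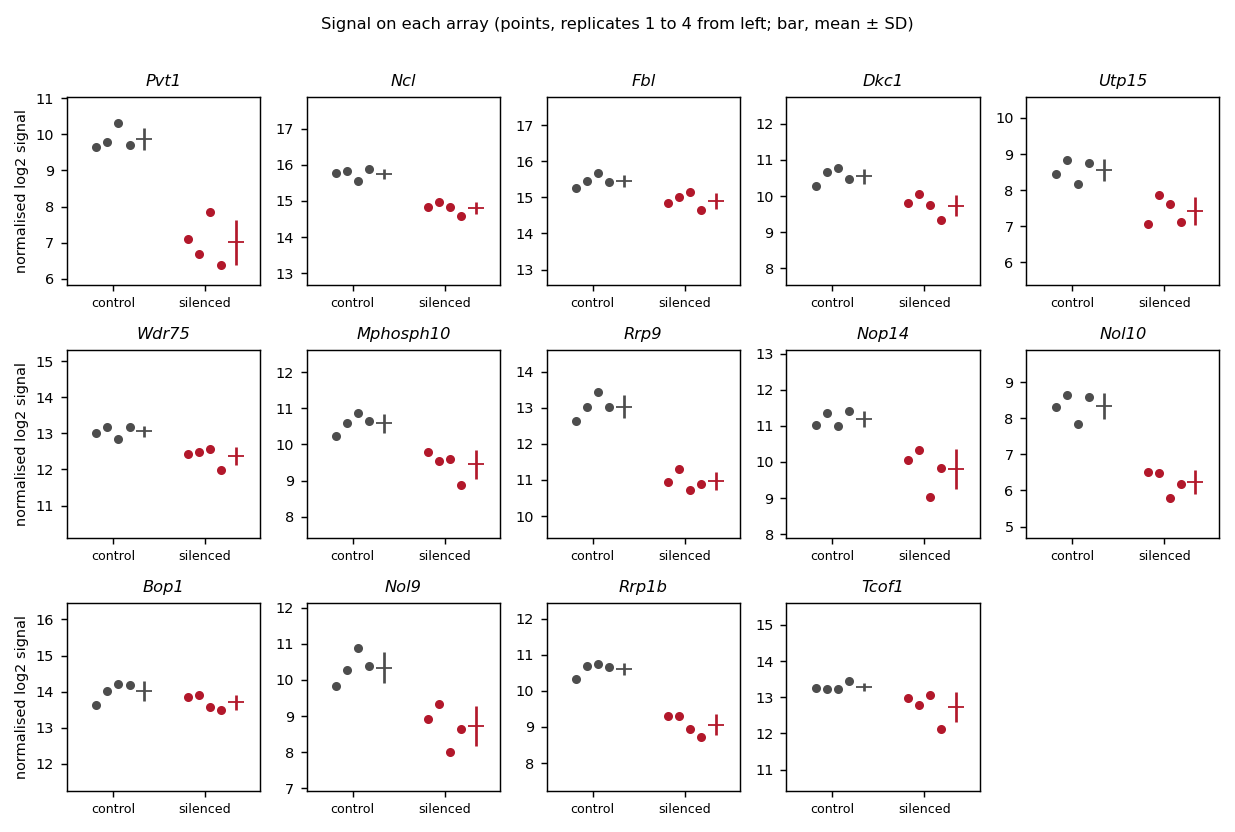
Normalised log2 signal (vertical axes) of Pvt1 and of 13 members on the 4 control (grey) and 4 silenced (red) arrays. Points are arrays, replicates 1 to 4 from left, with the mean and its SD beside them, and every panel spans the same range of log2 units. The groups are apart in every panel but that of Bop1, and Nol10 and Rrp9 show the largest gaps among the members shown. Most members shown were picked for a large change, and Nol10 after its values were seen, so these gaps are no test. Over all 60 members, 27 lay below control without overlap, against 17.8% of all genes.

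Other genes of the pathway were read in the same way. Of 58 further assembly factors, 8 were called lower (13.8%) and 0 higher, a share near the 13.2% of all genes, with a median of -0.28. The 8 were Cirh1a (-0.93), Nle1 (-1.74), Nmd3 (-1.07), Pdcd11 (-0.69), Rpf1 (-0.84), Rrp36 (-0.68), Tbl3 (-0.65) and Wdr74 (-0.77). The list was not stable: leaving out control replicate 2, control replicate 4 or silenced replicate 1 left 3 called in each case. Leaving out silenced replicate 3 left 4, and the slide row as a block left 2. Calls over all genes fell too, from 13.2% to 7.09%, 6.91%, 9.16%, 10.1% and 5.54% in these settings in turn. Of 15 genes of RNA polymerase I and its initiation factors, 5 were called lower and 0 higher: Polr1b (-1.22), Polr1c (-0.74), Cd3eap (-0.73), Taf1c (-1.30) and Ttf1 (-1.03). That count was 2 without control replicate 2 or without control replicate 4, and 3 without control replicate 3, silenced replicate 1 or silenced replicate 2. Over all genes 13.4% were called lower without control replicate 3 and 11.7% without silenced replicate 2. At an unadjusted p, a t-test with unequal variances called 15 of the 58 and 8 of the 15 lower, and 18.6% of all genes.

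Probes of one member often disagreed, and they disagreed by their place on the transcript. Over all 111 tested member probes, 46 were called lower (41.4%) and 0 higher, against 18.4% and 4.79% of all probes. The 51 tested probes other than the brightest gave 26 called lower and a median of -0.96, against -0.38 for the brightest. The shift was not confined to the members: of all 9192 such probes of named genes 27.5% were called lower, with a median of -0.46, against 13.2% and -0.05 for brightest probes. The 5′ and the 3′ probe of Nop56, whose sequences are given above, are an example. At the 3′ end, where the probe holds AATAAA, Nop56 read 14.30, 14.22, 14.61 and 14.41 in controls and 14.73, 14.39, 14.76 and 14.07 in silenced cells, and the groups overlapped. The probe 770 bases further 5′ read 13.99, 14.26, 14.02 and 14.30 in controls and 12.91, 12.91, 12.21 and 12.43 in silenced cells. There Nop56 fell by 1.53 (SE 0.23, limma adjusted p 0.00201), while it differed by 0.10 at the 3′ end.

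The same order was seen in other members that their brightest probe left uncalled. Rrp12 differed by -0.19 at its 3′ probe and fell by 1.89 (SE 0.21, limma adjusted p 0.000701) at a probe 979 bases further 5′, where controls read 8.69 to 9.2 and silenced cells 6.77 to 7.43. Heatr1 differed by -0.14 at one probe and fell by 1.33 (SE 0.19, limma adjusted p 0.00187) at a probe only 304 bases further 5′. Controls read 12.10 to 12.40 there and silenced cells 10.71 to 11.20, a clear gap. The widest case was Usp36. Its probe 794 bases 5′ of the brightest one read 8.86, 9.61, 8.03 and 9.29 in controls while all 4 silenced arrays were too dim to pass the background criterion there, which puts controls at least 6.87-fold higher (limma adjusted p 0.000434). A Wdr12 probe, designed to another transcript than the brightest one, went against this order, since it lies further 3′ on the genome. It was dim on all silenced arrays, and controls were at least 3.13-fold higher (limma adjusted p 0.00124).

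Of the 60 members, 27 had 2 or more tested probes at least 60 bases apart on one transcript. In 22 of the 27 (81.5%) the most 5′ probe had the more negative change, with medians of -1.24 at the 5′ and -0.36 at the 3′ probe, and 16 of the 5′ probes but 7 of the 3′ probes were called lower. Over all transcripts with such probes, 3236 of 4045 (80%) had the more negative change at the 5′ probe, with medians of -0.68 and -0.03, a share close to that of the members. There 1487 of the 5′ and 529 of the 3′ probes were called lower. With every gene read by its probe nearest the 3′ end, 19 of the 60 members were called lower (31.7%), against 13.4% of all genes. The 5 exceptions among the members included Brix1 (0.16 at the 5′ and -0.46 at the 3′ probe), Ncl (-0.95 and -1.22) and Npm1 (-0.40 and -0.60). Within arrays, the level of the 5′ probe minus that of the 3′ probe had a median over the 27 members of -1.45, -1.10, -2.84 and -1.60 on the control arrays and -2.64, -2.39, -3.23 and -2.29 on the silenced arrays. Control replicate 3 lay among the silenced arrays in this measure.

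Of the 27, 8 had 3 or more tested probes on one transcript. Nop58 had 4, and its change went from -1.54 at position 453 through -1.46 at 837 and -1.21 at 1263 to -0.47 at 1851, the first 3 of them called lower. Bms1 went from -1.32 at position 2474 to -0.96 at 3428 and -0.32 at 4207, and Rrp1b from -1.54 at 1716 to -1.08 at 2270 and -0.01 at 4528. Tsr1 (-1.28, -1.63 and -0.99) and Wdr75 (-0.29, -0.68 and -0.33) did not follow this order.

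**Figure D4:**
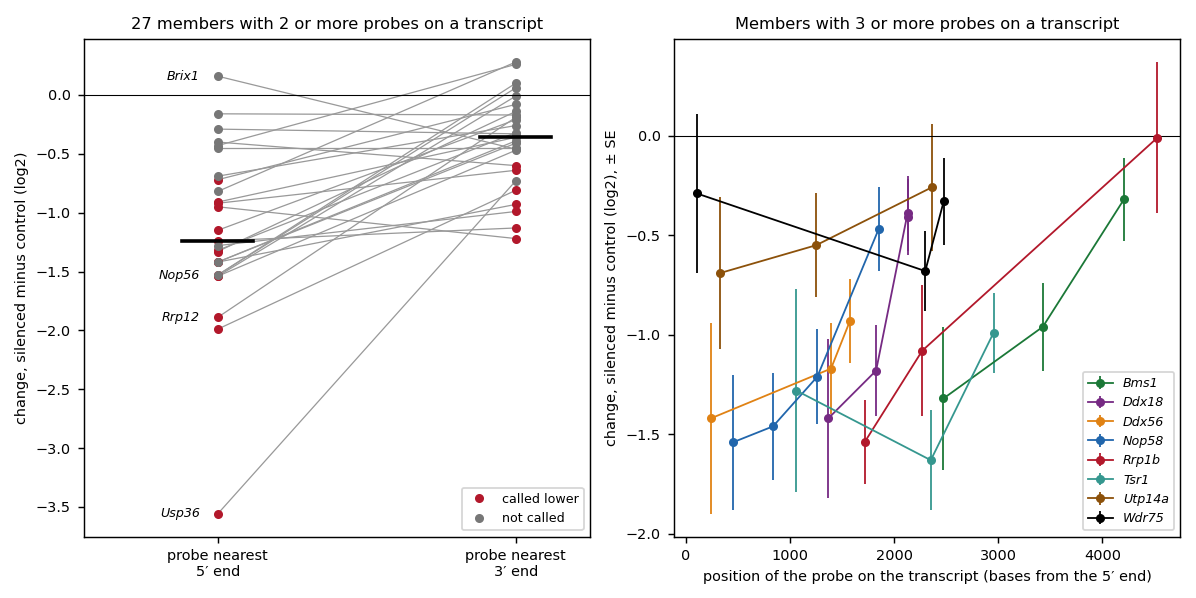
Left, change of the most 5′ and the most 3′ tested probe of 27 members (vertical axis, silenced minus control, log2), joined by a line for each member, with the medians of -1.24 and -0.36 as black bars and probes called lower in red. Right, change with its SE against the position of the probe on the transcript (bases) for the 8 members with 3 or more tested probes; Nop58, Bms1 and Rrp1b run upward from left to right.

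Probes that hold AATAAA or ATTAAA gave a like split, though such a match need not lie at the end of a transcript. Of the 14 tested member probes with a match, 3 were called lower and the median was -0.03. Among these 3 was the Nop58 probe at position 453, the most 5′ on its transcript. Of the 97 without a match 43 were called lower and the median was -0.72. Over all probes the median was 0.17 for the 4265 with a match, of which 6.64% were called lower. It was -0.26 for the 24384 without a match, of which 20.4% were. Among the brightest probes of members called lower, those of Wdr43 and Rrs1 held a match.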

How the data were processed

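Spot brightness (linear intensity, as deposited in the scanner output) was written per the file headers by Feature Extraction 12.0.0.7, while the labels name 10.7.3.1. A processed table of intensity that the authors deposited for the same arrays served as an alternative. Spot flags (0 or 1, unit other) come from the same deposited files. The members and lists were chosen with earlier results of these data known.

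Following the study's methods, spots not positive and significant were set to missing, log2 of the processed intensity the authors deposited was quantile normalised, and spots of a probe were averaged. Control spots and flagged outliers were left out. A probe needed 3 values of 4 in both groups and was tested with lmFit and eBayes (limma 3.58.1, R 4.3.3), group only, Benjamini-Hochberg over all 28649 probes at 0.05. A gene was read by its probe with the highest mean. A probe too dim on every array of a group was given as a bound, against the lowest value of probes well above background. Per-array values were given, in each role, for up to 2 members called in each direction with the largest change among those well above background on all 8 arrays, or else the brightest member, and for members well above background on no array of a group. Nol10 was added after its values were seen, as were the Gar1 values and the probe pairs shown. All 8 arrays shared 1 slide and 1 scan. Alternatives were other scalings, backgrounds, masks, filters, blocks, priors, tests, probes and left-out arrays. The fit was tested on simulated data. Coordinates of probes are mm9, and exons and UTRs were not analysed here. The number of arrays limits the precision. Figures used matplotlib 3.10.9.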

Additional observations from a re-analysis of the deposited data

Results flagged for a closer look

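In 9 of 121 groups of 4 arrays looked at (the brightest probe of each member and of Pvt1, in each group with 4 values), the lowest or highest array lay far from the others, its gap to the nearest value exceeding the critical value of Dixon's test as a share of the whole range. Chance alone flags about 1 in 20 such groups. In controls the low values were replicate 1 for Noc3l (gap 0.967 of the range), Ddx18 (0.855) and Rcl1 (0.8291), and replicate 3 for Rrp8 (0.842). The high values were control replicate 3 for Rrs1 (0.881) and control replicate 4 for Tcof1 (0.846). In silenced cells the low values were replicate 4 for Nob1 (0.866) and Nol6 (0.848), and the high value was replicate 2 for Utp20 (0.8785). Of these members Rrs1 and Utp20 were called lower.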

How the results depend on the processing

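Over 23 alternatives, 71 values of single members called lower lost the call, 56 of members not called gained one, and 1248 of 1377 stayed on their side of the threshold, most of them values of members not called. With a call, 2 reversed: Nhp2 (0.52) and Utp6 (0.49) under the 75th percentile shift. Ncl, Rrp9, Utp20 and Gnl3 stayed called lower under all 23 and Nol10 under all 22 that tested it. Members called lower numbered 13 with the replicate number as a block, 10 with slide row as the block and 14 to 20 without each array in turn. Over all genes 9.05%, 5.54% and 6.91% to 13.4% were called lower there. Members called higher were 13 with the 75th percentile shift, 1 with cyclic loess, 2 in the authors' series table and 3 with no mask. Over all genes 32%, 24.4%, 14.6% and 13% were called higher in these settings. The members' median relative to all probes, -0.19, was -0.07 with the 75th percentile shift, -0.28 in the series table and -0.53 when the tested probes of each gene were averaged. Of the 58 other factors, a t-test with unequal variances called 15 (unadjusted) or 5 (adjusted) lower, against 18.6% and 7.54% of all genes. With the 75th percentile shift 2 of the 58 were lower, with no mask 5 and with the replicate block 3. With the slide row 2 of the 58 were lower, and without each array 3 to 9. Called higher among them were 5 with the 75th percentile shift, 3 with cyclic loess, 4 in the series table, 4 with no mask, 5 without control replicate 3 and silenced replicate 4 together (chosen after seeing the data) and 0 to 1 without each array. RNA polymerase I genes called lower were 3 with the 75th percentile shift, 3 with the replicate block and 2 with the slide row. They were 2 to 5 without each array, and 8 (unadjusted) or 2 (adjusted) by the t-test with unequal variances. The cause was not tested. Same-numbered cultures correlated at -0.02 to 0.20 in their deviations, so the numbers were not taken to pair them. The series table gave no value for the Pvt1 probe. Pvt1 stayed called in every other alternative.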
